A study of Mus musculus with 24 samples.

Results

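The guanylate-binding protein (GBP) family was followed through RNA sequencing of mouse bone marrow–derived macrophages (BMDM). Its 10 members *Gbp2* to *Gbp11* were mapped by symbol to Ensembl identifiers in a table of 56884 genes. They were chosen by the pattern that earlier results of these same data had shown, so their values are given as descriptions, without *P* values.

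BMDM came from 4 wild-type C57BL/6J mice, numbered 1, 2, 4 and 5, which were 9-week-old females. The cells were differentiated over 6 days in M-CSF, a macrophage growth factor, and carried no transgene or deletion. Each mouse gave 1 library in each of 6 groups, so that every group held 4 libraries and all groups shared the same animals. Naive macrophages received no cytokine, and the second group received IL-4 and IL-13, each at 20 ng/ml, for 24 hours. The remaining groups received IL-4/IL-13 together with an inhibitor that was also given for 1 hour beforehand. Tunicamycin, at 5 µg/ml, blocks N-linked glycosylation and stresses the endoplasmic reticulum. Sal003, at 10 µM, blocks dephosphorylation of the translation initiation factor eIF2α. Oligomycin, at 1 µM, inhibits the mitochondrial ATP synthase, and it was given alone or with ISRIB, at 1 µM, a compound that counters the effect of phosphorylated eIF2α. The labels conflict on which of these last groups received ISRIB: the titles and the treatment field assign it to the libraries whose replicate label is Oligo, and the replicate labels to those called Oli_ISR. The groups are therefore called Oligo and Oli_ISR by replicate label, and whether a given value belongs to oligomycin with or without ISRIB cannot be told apart here.

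Gene reads per library ranged from 16238727 to 26725278, with a median of 18999998. All 8 macrophage markers examined, among them *Csf1r*, *Adgre1* and *Cd68*, were above 3 counts in at least 1 library of every group, and their summed level in CPM, read counts scaled to a fixed library size, ran from 8.78e+03 in Oligo to 3.69e+04 in naive macrophages. Of 8 T and NK cell genes, 7, including *Cd3e*, *Nkg7* and *Ifng*, were at or under 3 counts in every library. Summed neutrophil markers fell between 31.7 and 62.3 CPM in naive, 18 and 33.2 in IL-4/IL-13, 0.0513 and 0.286 in tunicamycin, 4.2 and 6.74 in Sal003, 1.98 and 3.72 in Oligo, and 14.6 and 18.5 in Oli_ISR libraries. Summed stromal markers fell between 27.7 and 139 CPM in naive, 48.8 and 111 in IL-4/IL-13 and 5.76 and 25.5 in tunicamycin libraries, and summed dendritic cell markers between 4.29 and 7.5, 5.79 and 7.53, and 0.964 and 1.99 CPM. In the Sal003, Oligo and Oli_ISR libraries the stromal sums ran from 8.14 to 56.8 CPM and the dendritic ones from 1.3 to 2.52 CPM. These sums moved with the groups, and their part in the family's values was not tested. In bulk libraries, fewer cells of a type and less RNA per cell cannot be told apart.

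GBPs are large GTPases of the dynamin superfamily. Interferon-γ induces most of them through gamma-activated sequences (GAS), and type I interferons act on interferon-stimulated response elements (ISRE). The proteins assemble on vacuoles and on bacteria in the cytosol, open them to other effectors and help to start caspase-11 and AIM2 inflammasome signalling. *Gbp2* and *Gbp5* encode proteins with a lipid-modification motif at the C terminus, which anchors them in membranes.

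The family lies in 2 clusters (GRCm39 coordinates, GENCODE M39 annotation). *Gbp5* (ENSMUSG00000105504, chr3:142199739-142228105), *Gbp7* (ENSMUSG00000040253, chr3:142236044-142255910), *Gbp3* (ENSMUSG00000028268, chr3:142265731-142278979) and *Gbp2* (ENSMUSG00000028270, chr3:142326349-142343779) lie on the plus strand of chromosome 3. *Gbp8* (ENSMUSG00000034438, chr5:105162016-105287452), *Gbp9* (ENSMUSG00000029298, chr5:105224332-105287452), *Gbp4* (ENSMUSG00000079363, chr5:105263633-105287609), *Gbp10* (ENSMUSG00000105096, chr5:105362773-105412666), *Gbp6* (ENSMUSG00000104713, chr5:105418568-105443751) and *Gbp11* (ENSMUSG00000092021, chr5:105470908-105494338) lie on the minus strand of chromosome 5. All 10 genes are annotated there as protein coding, whereas RefSeq lists *Gbp11* as a transcribed pseudogene.

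The members resemble each other to differing degrees, which the coding sequence around the phosphate-binding loop (P-loop) of the GTPase domain shows. So short a stretch does not show whether counts are affected, and longer shared stretches are given below. Each line is a stretch of 60 coding bases within 1 exon, 5′ to 3′ on the coding strand of GRCm39, with the P-loop codons in capitals.
Gbp8 (chr5:105198746-105198805, minus strand): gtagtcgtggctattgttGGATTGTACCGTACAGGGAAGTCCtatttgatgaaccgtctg
Gbp11 (chr5:105491628-105491687, minus strand): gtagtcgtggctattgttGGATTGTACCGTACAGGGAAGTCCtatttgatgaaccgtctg
Gbp6 (chr5:105438719-105438778, minus strand): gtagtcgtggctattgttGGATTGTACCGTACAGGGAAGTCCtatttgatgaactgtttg
Gbp10 (chr5:105383833-105383892, minus strand): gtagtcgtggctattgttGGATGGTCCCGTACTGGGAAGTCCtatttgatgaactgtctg
Gbp2 (chr3:142329569-142329628, plus strand): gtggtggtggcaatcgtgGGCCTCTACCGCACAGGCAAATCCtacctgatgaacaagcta
Gbp5 (chr3:142206432-142206491, plus strand): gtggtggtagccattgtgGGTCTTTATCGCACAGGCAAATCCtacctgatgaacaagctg

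*Gbp8* and *Gbp11* were identical over all 60 bases of this window. *Gbp6* and *Gbp10* matched at 56 of 60, *Gbp2* and *Gbp5* at 53 of 60, and *Gbp2* and *Gbp8*, one from each cluster, at 43 of 60. Over the whole aligned coding sequence, identity was 98.4% between *Gbp6* and *Gbp10*, 93.8% between *Gbp8* and *Gbp11*, 92.9% between *Gbp4* and either *Gbp8* or *Gbp11*, and 79.6% between *Gbp3* and *Gbp7*.

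Reads were 150 bases long at most and only those assigned to a single gene were counted. The share of each gene's exonic 75-base stretches that recur in another gene is thus a guide to how much signal could be lost. It can overstate the loss, since a longer read may hold a shared stretch and still be unique, and no length above 100 bases was compared. It also includes stretches shared with antisense RNAs at the same place, described below. The share was 61.4% for *Gbp6* and 65.5% for *Gbp10*, both shared mainly with each other and with *Gm43302*, an overlapping gene model of the same strand that was at 0 counts in every library. It was 14.7% for *Gbp7*, 11.2% for *Gbp11*, 8.22% for *Gbp5*, 7.69% for *Gbp8*, 4.49% for *Gbp9*, 3.14% for *Gbp4*, 1.7% for *Gbp3* and 1.05% for *Gbp2*. These shares depend on the length compared: with stretches of 50 and 100 bases they were 19.9% and 5.86% for *Gbp11*, 16.6% and 3.73% for *Gbp8*, 64.4% and 59.1% for *Gbp6*, and 70.3% and 62.1% for *Gbp10*. The levels of *Gbp6* and *Gbp10* are the least certain at each length. *Gbp4*, *Gbp8* and *Gbp9* also share a noncoding 107-base exon (chr5:105287346-105287452), which is in 20 of 20 annotated *Gbp4* transcripts but in only 1 of 12 for *Gbp8* and 1 of 16 for *Gbp9*. *Gbp5*, *Gbp7* and *Gbp9* overlap antisense long noncoding RNAs. Stretches shared with them made up 7.05% of positions for *Gbp5*, 3.97% for *Gbp7* and 2.05% for *Gbp9* at 75 bases. These RNAs have no entry in the count table and lie at the same place, so such stretches cost the genes no counts. Since the strand setting of the counting was not given in the sources used here, reads of these RNAs cannot be told apart from those of the genes. *Gbp7* also shares 637 exonic bases, 10.6% of its own, with the pseudogene *Gm43802* on the same strand.

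Start-site windows, running from 250 bases before to 50 bases after the start, were taken from RefSeq (GRCm38.p6) for the 4 chromosome 3 genes. Those of *Gbp4*, *Gbp6*, *Gbp8*, *Gbp9*, *Gbp10* and *Gbp11* have no entry in that table. Each window was found once in GRCm39, whose coordinates are given. The windows are shown for pairs of genes described below, which were formed after their responses were seen. The *Gbp5* window lies inside the GENCODE gene, whose annotated start is at 142199739. Capitals mark matches, on either strand, to the GAS letters TTCNNNGAA or the ISRE core letters GAAANNGAAA, which may overlap.
Gbp2 (chr3:142326174-142326473, plus strand): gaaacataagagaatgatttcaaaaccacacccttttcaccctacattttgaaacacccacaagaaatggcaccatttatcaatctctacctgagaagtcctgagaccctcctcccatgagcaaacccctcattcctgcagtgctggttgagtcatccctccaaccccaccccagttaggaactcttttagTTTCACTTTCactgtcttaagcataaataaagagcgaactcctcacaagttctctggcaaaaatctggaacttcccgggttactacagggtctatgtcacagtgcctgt
Gbp3 (chr3:142265555-142265854, plus strand): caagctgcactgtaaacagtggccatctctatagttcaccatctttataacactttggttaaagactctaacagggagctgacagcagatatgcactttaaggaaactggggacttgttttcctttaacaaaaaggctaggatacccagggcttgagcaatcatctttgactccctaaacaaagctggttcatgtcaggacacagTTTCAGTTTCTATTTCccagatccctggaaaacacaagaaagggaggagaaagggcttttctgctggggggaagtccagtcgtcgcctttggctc
Gbp5 (chr3:142202445-142202744, plus strand): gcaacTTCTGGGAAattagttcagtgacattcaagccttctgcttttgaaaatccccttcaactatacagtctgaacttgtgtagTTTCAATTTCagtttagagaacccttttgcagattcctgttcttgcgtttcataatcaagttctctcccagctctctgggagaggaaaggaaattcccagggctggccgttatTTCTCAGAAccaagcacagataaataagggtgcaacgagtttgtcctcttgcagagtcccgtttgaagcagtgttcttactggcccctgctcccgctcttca
Gbp7 (chr3:142235847-142236146, plus strand): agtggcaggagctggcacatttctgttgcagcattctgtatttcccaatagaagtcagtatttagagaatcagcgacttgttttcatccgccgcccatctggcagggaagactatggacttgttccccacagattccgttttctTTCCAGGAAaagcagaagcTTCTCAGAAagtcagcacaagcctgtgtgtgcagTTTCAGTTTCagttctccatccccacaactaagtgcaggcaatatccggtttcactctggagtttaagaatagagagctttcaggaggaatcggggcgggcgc

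The *Gbp5* and *Gbp7* windows each held 2 GAS matches and 1 ISRE match. The *Gbp2* window held 1 ISRE match, and the *Gbp3* window held 2 overlapping ISRE matches, neither with a GAS match. A second RefSeq window for *Gbp3* held no match to either. Of all 32851 windows of this length in the table, 8.3% held a GAS match, 3.44% an ISRE match and 0.454% both. These are matches of letters, not sites of binding.

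Naive macrophages expressed most of the family. Per kilobase of annotated exon, *Gbp2* stood first at 26.6 CPM per kilobase, followed by *Gbp3* at 11.8, *Gbp9* at 8.66, *Gbp7* at 6.26 and *Gbp5* at 3.07. *Gbp8*, *Gbp6* and *Gbp4* came next at 0.687, 0.657 and 0.62 CPM per kilobase and did not differ from each other beyond their spread over mice. With only the unshared bases of each gene as its length, *Gbp6* rose to 1.72 and stood above *Gbp8* at 0.77. *Gbp11* was close to silent, at 1 to 4 counts per library, and *Gbp10* was at 0 counts in all 4 naive libraries. *Gbp10* stayed between 0 and 2 counts in all 24 libraries and was the 1 member that did not pass the expression filter, leaving 9 for comparison. *Gbp11* passed it only through the inhibitor groups, where it was high, so that its calls there follow from how it passed, and counts of calls are also given without it. The medians of the members include *Gbp11* and were not computed without it. The neighbouring paralog *Gbp2b* did not exceed 17 counts in any library.

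**Figure D1:**
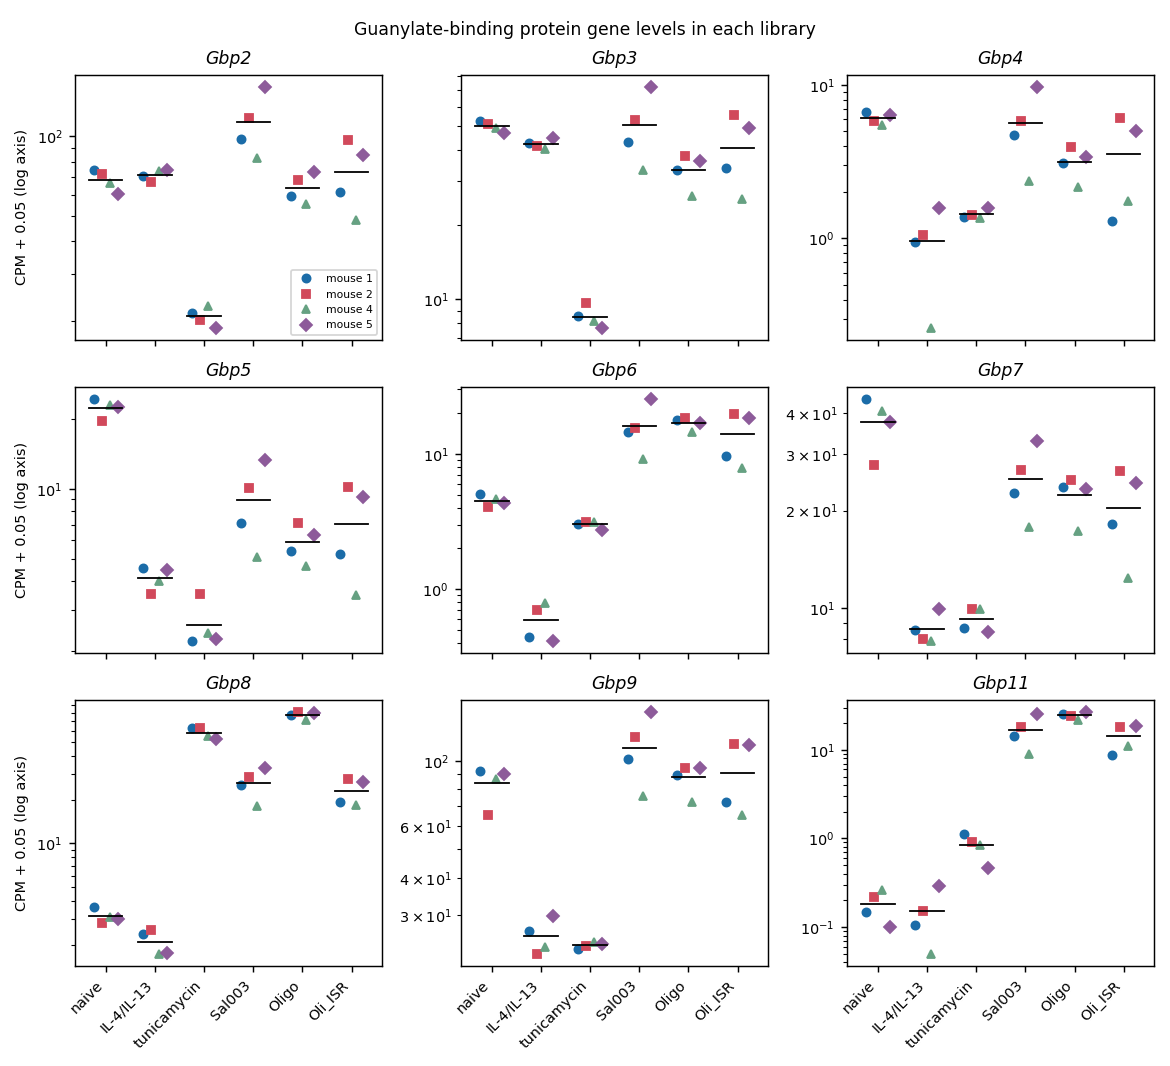
Levels of the 9 family genes that passed the filter, as CPM plus 0.05 on a log axis (vertical), in the 6 groups (horizontal); each symbol is 1 library, its shape and colour the mouse, and each line the mean of 4 libraries. *Gbp8* averaged 77.1 CPM in Oligo against 2.05 CPM with IL-4/IL-13 alone, whereas *Gbp2* and *Gbp3* reached their lowest levels with tunicamycin.

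The first comparison asks what IL-4/IL-13 did to the family in otherwise untreated cells. *Gbp4*, *Gbp5*, *Gbp6*, *Gbp7* and *Gbp9* were called lower, while *Gbp2* and *Gbp3* moved by less than the fold threshold. A gene was called when its Benjamini-Hochberg adjusted *P* in edgeR's quasi-likelihood test was under 0.05 and its fold change was at least 2.5. By this rule 5 of 9 members were lower and 0 higher, where 6.08% of the 13679 genes tested were lower and 5.39% higher. The median log2 fold change of the members was −1.73, and that of all genes −0.02.

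*Gbp9*, an abundant member of the chromosome 5 cluster, measured 92.4, 65.5, 86.9 and 90.2 CPM in naive libraries of mice 1, 2, 4 and 5. With IL-4/IL-13 it measured 26.5, 22.1, 23.2 and 29.7 CPM, a log2 fold change of −1.73 (SE 0.18). Every treated library was below every naive one. *Gbp5*, whose product promotes inflammasome assembly, went from 22.4 ± 1.99 to 4.09 ± 0.478 CPM (SD, n = 4), with a log2 fold change of −2.46 (SE 0.26). *Gbp7* went from 37.5 ± 7.08 to 8.53 ± 0.91 CPM, and its ranges did not overlap either. *Gbp6* had the largest fitted change of the family, from 4.46 ± 0.431 to 0.537 ± 0.188 CPM, with a log2 fold change of −3.02 (SE 0.44). *Gbp4* was similar, at 6.02 ± 0.514 and 0.907 ± 0.538 CPM.

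*Gbp2*, by contrast, measured 74.2, 71.6, 66.3 and 60.1 CPM in naive macrophages and 70.6, 67.1, 73.7 and 74.5 CPM with IL-4/IL-13. These ranges overlapped, and the log2 fold change was 0.07 (SE 0.17). *Gbp3* averaged 50 ± 2.42 CPM and 42.4 ± 1.81 CPM, a log2 fold change of −0.24 (SE 0.19), lower in 4 of 4 mice and without overlap but under the fold threshold. *Gbp8* averaged 3.1 ± 0.331 and 2.05 ± 0.415 CPM, likewise without overlap and under the threshold. The pair with ISRE matches alone in the printed windows, *Gbp2* and *Gbp3*, had the smaller fold changes of the 4 chromosome 3 genes here, and the pair with GAS matches was among the genes called lower; with 4 windows this is a description only, and no binding was measured.

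**Figure D2:**
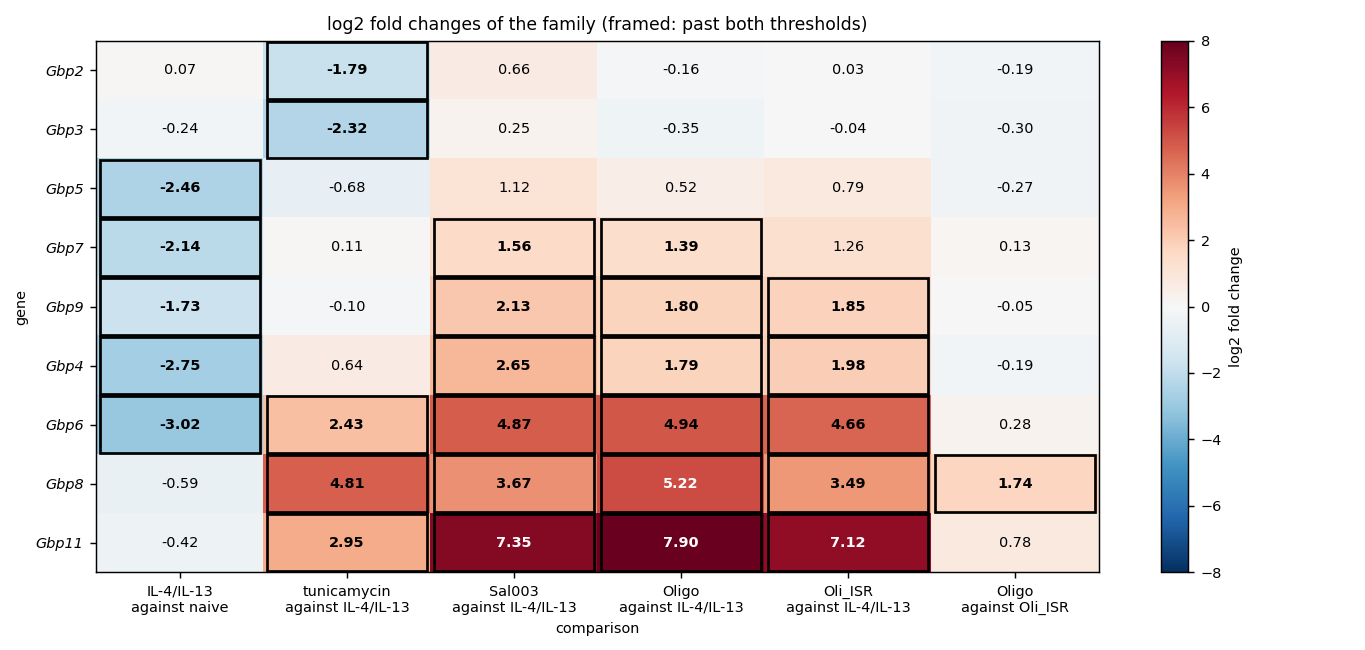
log2 fold changes (colour and numbers) of 9 family genes (rows) in 6 comparisons (columns); framed cells passed an adjusted *P* under 0.05 and a fold change of at least 2.5. *Gbp2* and *Gbp3* have frames only for tunicamycin, and *Gbp8* alone has one between Oligo and Oli_ISR.

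No group received an inhibitor without the cytokines. An altered response to the cytokines and an effect of the inhibitor itself therefore cannot be told apart. The inhibitor groups were each compared with IL-4/IL-13 alone. These 4 comparisons share the same IL-4/IL-13 libraries and are therefore not independent of one another.

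With tunicamycin, members moved in both directions. *Gbp8*, *Gbp11* and *Gbp6* were higher, *Gbp2* and *Gbp3* were lower, and *Gbp4*, *Gbp5*, *Gbp7* and *Gbp9* were not called. The 3 higher and 2 lower calls among 9 members compare with 8.56% of all genes higher and 14% lower. Without *Gbp11*, 2 of 8 members were higher and 2 lower. The lower counts were near the background, and the 2 of 8 higher rest on few genes. The median of the members, *Gbp11* included, was 0.11, and that of all genes 0.01, on the log2 scale.

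*Gbp8* measured 2.34, 2.47, 1.69 and 1.7 CPM with IL-4/IL-13 in mice 1, 2, 4 and 5. Under tunicamycin the same mice gave 62.1, 62.5, 54.9 and 52.9 CPM, and the log2 fold change was 4.81 (SE 0.18). The lowest tunicamycin library lay far above the highest IL-4/IL-13 library, and above every naive one. *Gbp11*, its closest relative in coding sequence, went only from 0.0557, 0.101, 0 and 0.243 CPM to 1.08, 0.857, 0.794 and 0.408 CPM. In counts this was 7 reads over 4 libraries against 61, a depth-corrected ratio of 8.21 with a 95% exact interval of 3.75 to 21.3 that covers counting error only. *Gbp6* rose from 0.537 to 2.96 ± 0.179 CPM, with a log2 fold change of 2.43 (SE 0.47), and stayed below all naive libraries.

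*Gbp2*, the most highly expressed member per kilobase in naive cells, dropped under tunicamycin to 21.4, 20.1, 22.6 and 18.7 CPM, with −1.79 (SE 0.18) as its log2 fold change. *Gbp3* dropped to 8.52, 9.57, 8.11 and 7.59 CPM, a log2 fold change of −2.32 (SE 0.22). For both genes every tunicamycin library was below every other library of the study. *Gbp9* averaged 23.6 ± 0.545 CPM, *Gbp7* 9.16 ± 0.811 CPM and *Gbp4* 1.39 ± 0.0992 CPM, each with a range that overlapped that of IL-4/IL-13 alone. *Gbp5* averaged 2.54 ± 0.63 CPM, below the IL-4/IL-13 libraries by less than the threshold. Set against naive macrophages, 7 of 9 members were lower in every tunicamycin library and 2, *Gbp8* and *Gbp11*, were higher in every one; over all genes, 35.2% were lower and 32.8% higher without overlap.

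With Sal003, most of the family was higher than with IL-4/IL-13 alone. *Gbp11*, *Gbp6*, *Gbp8*, *Gbp4*, *Gbp9* and *Gbp7* were called, which is 6 of 9 members higher and 0 lower, where 2.68% of all genes were higher and 5.04% lower. Without *Gbp11* the count was 5 of 8. The median log2 fold change of the members, *Gbp11* included, was 2.13, against 0.00 over all genes. *Gbp11* had the largest change, so this median would be lower without it. *Gbp9* measured 101, 120.5, 75.8 and 146.3 CPM, a log2 fold change of 2.13 (SE 0.18), so that its mean of 111 ± 29.9 CPM was above the naive mean of 83.8 ± 12.4 CPM while the ranges overlapped. *Gbp6* measured 14.5, 15.6, 9.06 and 25.2 CPM, above every naive library. *Gbp11* measured 14.4, 18.2, 8.83 and 25.1 CPM. By depth-corrected counts this was 176 times its level with IL-4/IL-13 alone (95% exact interval 85 to 438, counting error only). *Gbp8* averaged 26.2 ± 6.27 CPM, less than with tunicamycin and without overlap with it. The pair *Gbp2* and *Gbp3* moved less: *Gbp2* averaged 113 ± 30.9 CPM, higher in 4 of 4 mice with a log2 fold change of 0.66 (SE 0.16), and *Gbp3* 50.4 ± 16.7 CPM, with 0.25 (SE 0.19). *Gbp5* averaged 8.87 ± 3.62 CPM, a log2 fold change of 1.12 (SE 0.27) that stayed under the fold threshold, and all 4 of its libraries were below all naive ones.

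In the Oligo and Oli_ISR groups most members were also higher than with IL-4/IL-13 alone. In Oligo, *Gbp11*, *Gbp8*, *Gbp6*, *Gbp9*, *Gbp4* and *Gbp7* were called, 6 of 9 members higher and 0 lower, where 4.79% of all genes were higher and 7.96% lower. In Oli_ISR *Gbp11*, *Gbp6*, *Gbp8*, *Gbp4* and *Gbp9* were called, 5 of 9 higher and 0 lower, where 2.94% of all genes were higher and 5.02% lower. Without *Gbp11* the counts were 5 of 8 in Oligo and 4 of 8 in Oli_ISR. *Gbp7* reached 2.4-fold there, with a log2 fold change of 1.26 (SE 0.21), close to the threshold of 2.5. The medians of the members, *Gbp11* included, were 1.79 and 1.85, and those of all genes 0.01 and 0.00. *Gbp11* had the largest change in both groups, so these medians would be lower without it.

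*Gbp11* measured 25.4, 23.9, 21.6 and 26.6 CPM in Oligo and 8.67, 18.1, 11.1 and 18.6 CPM in Oli_ISR. These groups did not overlap. Against IL-4/IL-13 alone the count ratios were 256 (95% exact interval 124 to 636) and 152 (73.5 to 379). These intervals also cover counting error only, not the spread between mice. *Gbp6* averaged 16.9 ± 1.7 CPM in Oligo and 13.9 ± 6.01 CPM in Oli_ISR, with log2 fold changes of 4.94 (SE 0.37) and 4.66 (SE 0.38) against IL-4/IL-13 alone. *Gbp9* was back near its naive level in both, at 87.8 ± 10.4 and 91 ± 25.9 CPM. *Gbp4*, at 3.08 ± 0.741 and 3.48 ± 2.36 CPM, and *Gbp7*, at 22.3 ± 3.42 and 20.3 ± 6.37 CPM, lay between the IL-4/IL-13 and naive means. The *Gbp4* libraries of Oli_ISR, the lowest at 1.25 CPM, overlapped those of IL-4/IL-13 alone, the highest at 1.52 CPM. *Gbp5*, at 5.84 ± 1.09 and 6.99 ± 3.18 CPM, remained below every naive library in both groups. *Gbp2* averaged 63.9 ± 8.19 and 72.9 ± 22.1 CPM, with ranges that overlapped those of IL-4/IL-13 alone. *Gbp3* averaged 33.3 ± 5.19 CPM in Oligo, where it was lower in 4 of 4 mice by a log2 fold change of −0.35 (SE 0.19), and 41 ± 13.9 CPM in Oli_ISR.

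Between Oligo and Oli_ISR, *Gbp8* was the member that separated. It measured 77.4, 80.5, 71.5 and 78.9 CPM in Oligo and 19.4, 27.8, 18.5 and 26.5 CPM in Oli_ISR. The log2 difference of Oligo minus Oli_ISR was 1.74 (SE 0.13), with no overlap and the same direction in 4 of 4 mice. *Gbp11* was also higher in 4 of 4 mice, by a log2 difference of 0.78 (SE 0.22), but under the fold threshold. The other 7 members differed by −0.30 to 0.28 with overlapping ranges. This made 1 of 9 members higher and 0 lower, where 1.14% of all genes were higher and 1.48% lower, and the members' median was −0.05 against −0.00 over all genes. Because of the conflict between the labels, the sign of the *Gbp8* difference cannot be assigned to the presence of ISRIB.

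The order of *Gbp8* across groups was Oligo, tunicamycin, Sal003, Oli_ISR, naive and IL-4/IL-13, by means of 77.1, 58.1, 26.2, 23, 3.1 and 2.05 CPM. Sal003 and Oli_ISR, neighbours in this order, overlapped, and the other neighbours did not. The order of *Gbp11* was Oligo, Sal003, Oli_ISR, tunicamycin, naive and IL-4/IL-13, by means of 24.4, 16.6, 14.1, 0.784, 0.133 and 0.0998 CPM. Oligo overlapped Sal003, Sal003 overlapped Oli_ISR, and naive overlapped IL-4/IL-13, while the other neighbours did not overlap. *Gbp8* was thus higher with tunicamycin than with Sal003, and *Gbp11* was lower, with no overlap in either case.

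Mice spread widely in some groups. Mean centred log2 CPM over the 9 members was 0.87, 1.15, 0.35 and 1.58 in the Sal003 libraries of mice 1, 2, 4 and 5, and 0.23, 1.15, 0.05 and 1.04 in Oli_ISR. In Oligo it was 0.93, 1.08, 0.65 and 1.03. In tunicamycin it ran only from −1.09 to −0.82. Mouse 4 was lowest and mouse 2 or mouse 5 highest in each of the Sal003, Oligo and Oli_ISR groups. The summed level of the family spread accordingly, from 253.1 to 511.9 CPM in Sal003 and from 193.7 to 374.2 CPM in Oli_ISR, against 146.7 to 167.1 CPM with IL-4/IL-13 alone.

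**Figure D3:**
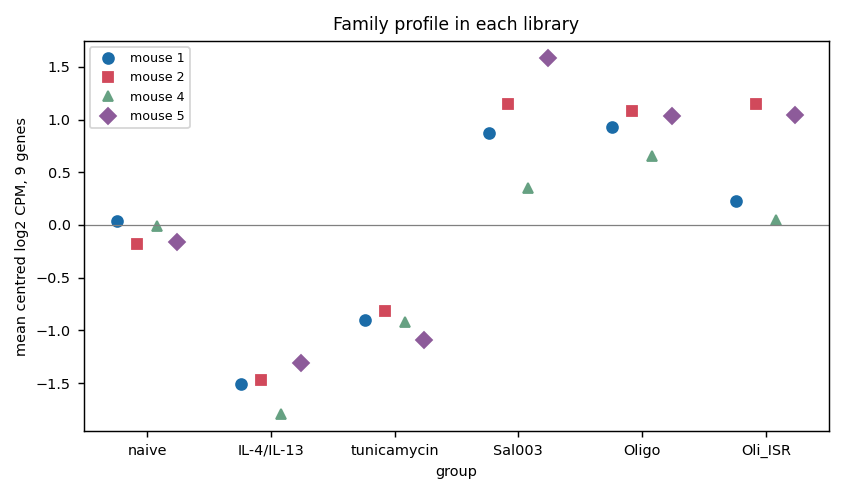
Mean over 9 family genes of log2 CPM, each gene centred on its mean over 24 libraries (vertical), in each library by group (horizontal), with shape and colour for the mouse. Libraries with IL-4/IL-13 alone lie between −1.79 and −1.31, and those with Sal003 spread from 0.35 to 1.58.

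Across the 24 libraries, the members varied in loose sets, which are given as a description since all values come from the same libraries and carry the same group differences. *Gbp2* and *Gbp3* had a Pearson *r* of 0.96 for log2 CPM. *Gbp7* had an *r* of 0.90 with each of *Gbp4*, *Gbp5* and *Gbp9*. *Gbp6* and *Gbp11* had an *r* of 0.87, and *Gbp8* and *Gbp11* 0.76. *Gbp8* had an *r* of −0.48 with *Gbp3* and −0.37 with *Gbp5*. Neighbours on the chromosome were not always alike: *Gbp3*, which lies between *Gbp7* and *Gbp2*, had an *r* of 0.62 with *Gbp7*.

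**Figure D4:**
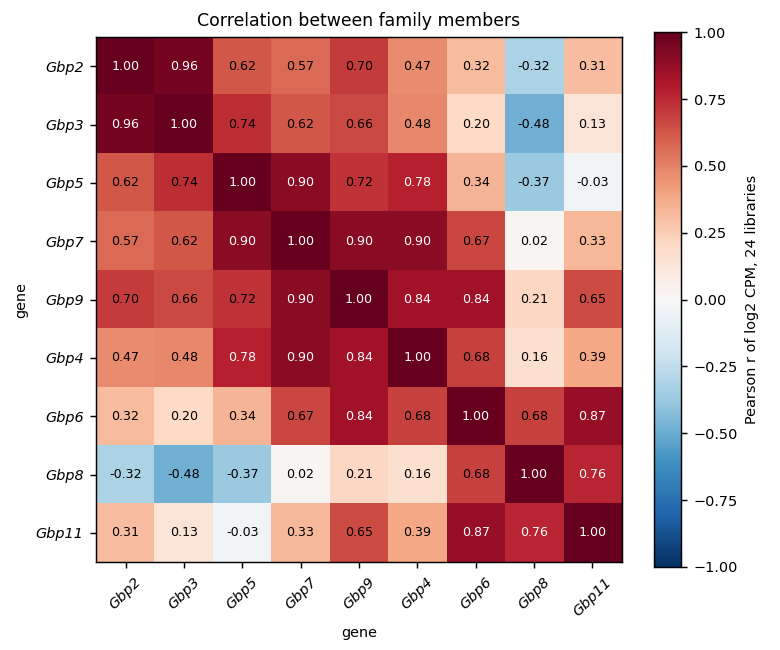
Pearson *r* of log2 CPM over 24 libraries between 9 family genes (rows and columns), from −1 (blue) to 1 (red). The block of *Gbp2* and *Gbp3* reaches 0.96, while *Gbp8* runs from −0.48 with *Gbp3* to 0.76 with *Gbp11*.

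Among 9736 other genes with a mean of at least 5 CPM, those whose levels most resembled the mean profile of the 9 members over 24 libraries were *4930430E12Rik* (*r* = 0.972), *Cd300lf* (0.971), *Tap1* (0.968), *Tent4a* (0.966) and *H2-Q4* (0.964). Members with the largest log2 changes, *Gbp11*, *Gbp8* and *Gbp6*, weigh most in this profile, and it was not computed without *Gbp11*. *Tap1* encodes a subunit of the transporter that loads peptides onto major histocompatibility complex (MHC) class I, and *H2-Q4* a class I molecule. *Tap1* averaged 145 CPM in naive, 87.1 with IL-4/IL-13, 91.1 with tunicamycin, 240 with Sal003, 270 in Oligo and 245 in Oli_ISR libraries.

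The immunity-related GTPases (IRGs) are the other family of interferon-inducible GTPases that acts at pathogen vacuoles. This list, and the signalling and partner lists below, were chosen with earlier results of these data known. Values are printed mainly for the largest changes among called genes, so their adjusted *P* values are descriptive and no independent support. Of 15 listed, 13 passed the filter, without *Tgtp1*, which was under it, and *Gm4951*, for which no identifier was matched. The 13 include *Gvin1*, which encodes a very large inducible GTPase rather than an IRG and was not called in any of the 6 comparisons. They also include *Gm12250*, annotated as a transcribed processed pseudogene. Counts and medians for IRGs below are those of this list, with both genes in it. IL-4/IL-13 lowered 9 of 13 and raised 0, with a median log2 fold change of −2.06. By edgeR, tunicamycin against IL-4/IL-13 lowered 5 and raised 0, while DESeq2 called 1 higher, as edgeR did with no filter, with only the 2 groups compared, and without mouse 4 or without mouse 5. Sal003 raised 9, Oligo raised 6 and Oli_ISR raised 9, with none lowered in these 3 groups. The medians for tunicamycin, Sal003, Oligo and Oli_ISR were −0.89, 2.17, 1.2 and 1.8. All these counts stand against the shares of all genes given above.

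*Iigp1*, an effector that coats the vacuole, fell from 22.5 ± 5.83 to 0.473 ± 0.157 CPM with IL-4/IL-13 (log2 fold change −5.58, edgeR adjusted *P* = 4.2e-09). *Tgtp2* rose with Sal003 from 2.11 ± 0.325 to 23.2 ± 9.92 CPM (3.46, adjusted *P* = 2.1e-09), although its reads could be split with *Tgtp1*, a near-identical copy. *Gm12250* rose to 61.2 ± 17.1 CPM (2.78, adjusted *P* = 8.8e-12). With tunicamycin *Gm5431* went from 39.1 ± 1.86 to 5.41 ± 0.646 CPM (−2.85, adjusted *P* = 1.1e-13), and *9930111J21Rik2* and *9930111J21Rik1*, also close copies, had log2 fold changes of −2.48 (adjusted *P* = 8.2e-09) and −2.47 (adjusted *P* = 4.2e-08). *Iigp1*, the IRG that DESeq2 called higher with tunicamycin, averaged 1.52 ± 0.319 CPM against 0.473 ± 0.157 with IL-4/IL-13 alone and was higher in 4 of 4 mice (1.70, edgeR adjusted *P* = 0.056, DESeq2 adjusted *P* = 0.005). Between Oligo and Oli_ISR, 13 of 13 IRGs had a negative difference, with a median of −0.81, but only *F830016B08Rik* was called lower (−1.35, adjusted *P* = 0.0042). Without mouse 2 this count was 0 and without mouse 4 it was 2.

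**Figure D5:**
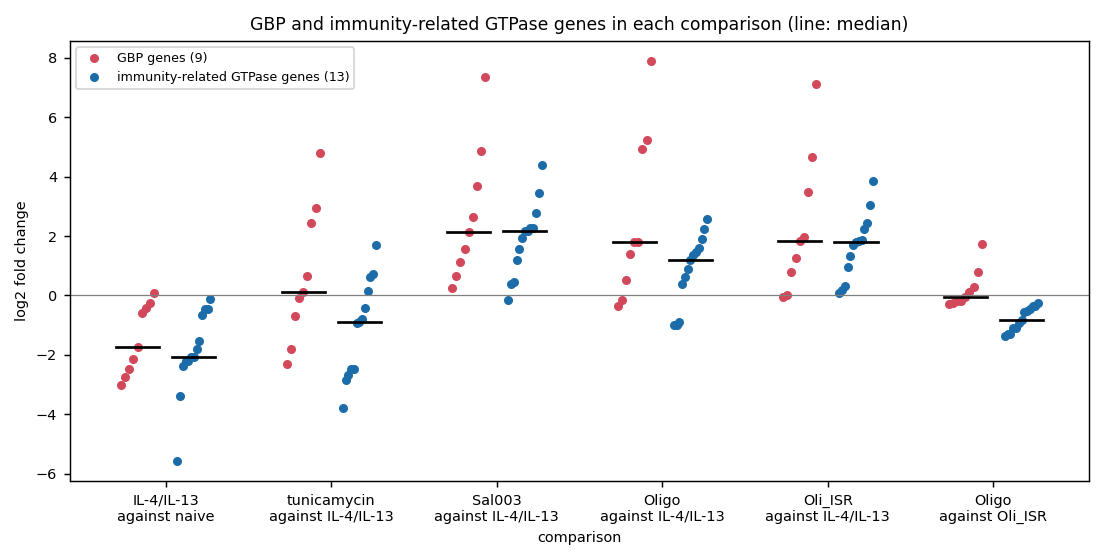
log2 fold changes (vertical) of 9 GBP genes and 13 genes of the immunity-related GTPase list, *Gvin1* included, in 6 comparisons (horizontal), each point a gene, each line a median. The IRG points lie at or below 1.70 with tunicamycin and all below 0 in Oligo against Oli_ISR, where *Gbp8* stands at 1.74.

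Of 19 interferon signalling genes listed, 17 passed the filter, and 1 to 4 of them were called in each comparison. The ligand genes did not: *Ifng* had at most 1 count in any library, and *Ifnb1* at most 17. The receptor gene *Ifngr1* averaged 344 CPM in naive, 322 with IL-4/IL-13, 159 with tunicamycin, 197 with Sal003, 133 in Oligo and 218 in Oli_ISR libraries. The other receptor genes did not follow it. In the same order of groups, *Ifngr2* averaged 280.4, 276, 196.1, 313.5, 242.6 and 301.4 CPM. *Ifnar1* averaged 205.7, 166.8, 188, 174.2, 132.4 and 170.7 CPM, and *Ifnar2* 90.95, 36.68, 58, 51.81, 54.84 and 52.15 CPM. None of these receptor genes was called. IL-4/IL-13 lowered 3 genes, among them *Socs3* and *Stat2*, and raised *Socs1*, where 6.08% of all genes were lower and 5.39% higher. The 1 raised gene of 17 was near the background. *Socs1*, a feedback inhibitor of the pathway, went from 3.67 ± 1.02 to 63.8 ± 6.98 CPM (log2 fold change 4.13, edgeR adjusted *P* = 8.4e-19).

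Sal003 raised 3 of the 17 genes, among them *Stat2* and *Nlrc5*, and lowered 0, against 2.68% and 5.04% of all genes. Here *Nlrc5*, with a log2 fold change of 1.33 (edgeR adjusted *P* = 2.9e-09), and *Ciita*, with −1.32 (adjusted *P* = 4.3e-14), lay at the 2.5-fold threshold. The split was 2 higher and 1 lower with DESeq2, upper-quartile normalization, DESeq2 size factors, at least 10 counts in every library, only the 2 groups compared, or without mouse 2. *Stat2*, a transcription factor of the type I interferon response, rose by a log2 fold change of 1.86 (adjusted *P* = 1.7e-09). Oli_ISR raised 3, among them *Stat2* and *Nlrc5*, and lowered *Ciita*, against 2.94% and 5.02% of all genes. With mouse as a replicate block it raised 2, since *Nlrc5* (1.33, and 1.32 with the block) then fell just under 2.5-fold. The count was also 2 with upper-quartile normalization, DESeq2 size factors, at least 10 counts in every library, only the 2 groups compared, or without mouse 2 or mouse 5. Oligo raised *Socs3*, *Nlrc5* and *Stat2* and lowered *Ciita*, where 4.79% of all genes were higher and 7.96% lower. The 1 lowered gene of 17 was near the background. *Ciita*, the master regulator of MHC class II genes, went from 238 ± 10.1 to 28.9 ± 0.959 CPM (−3.04, edgeR adjusted *P* = 7.6e-21). Tunicamycin raised 1, *Socs3*, with a log2 fold change of 3.47 (adjusted *P* = 5.6e-18), and lowered 3, *Ciita* (−3.96, adjusted *P* = 2.5e-23), *Socs1* (−3.93, adjusted *P* = 3.1e-19) and *Irf2* (−1.78, adjusted *P* = 3e-19). As shares of the list, 1 and 3 of 17 were near the 8.56% and 14% of all genes called in these directions. Between Oligo and Oli_ISR only *Socs3* was called, higher by a log2 difference of 1.54 (edgeR adjusted *P* = 2.2e-09). Of all genes, 1.14% were higher and 1.48% lower there. The medians of the list stayed between −0.34 and 0.18 in all 6 comparisons.

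Genes whose products work with GBPs, in inflammasomes, in pathogen targeting or in attaching their lipid anchor, gave 13 of 13 tested. IL-4/IL-13 lowered *Zbp1*, *Nlrp3* and *Rnf213* and raised 0. Sal003 and Oli_ISR each raised 2, *Zbp1* and *Rnf213*, and Oligo raised 3, these and *Casp4*. *Zbp1*, a nucleic acid sensor, rose with Sal003 from 18.7 ± 1.55 to 171 ± 61.4 CPM (3.20, edgeR adjusted *P* = 8.9e-11). *Rnf213*, a ubiquitin ligase that acts on intracellular bacteria, rose from 157 ± 16.5 to 816 ± 220 CPM (2.38, adjusted *P* = 4.3e-11). Tunicamycin raised 2, *Casp4*, the gene for caspase-11, from 13.7 ± 1.95 to 82.8 ± 3.96 CPM (2.60, adjusted *P* = 1.6e-17), and *Nlrp3* by a log2 fold change of 1.44 (adjusted *P* = 2.5e-15), and lowered 0. With 8.56% of all genes higher and 14% lower, these counts of 13 were near the background, and 1 was lower with upper-quartile normalization, at least 10 counts in every library or only the 2 groups compared. The counts for the other comparisons stand against the shares of all genes given above. *Casp4* averaged 56.9 ± 1.02 CPM in Oligo against 29.1 ± 3.5 CPM in Oli_ISR, a log2 difference of 0.97 (adjusted *P* = 9.5e-09) that was under the fold threshold. Between these groups edgeR called 0 of 13 and DESeq2 called 0, while 8 had an unadjusted edgeR *P* under 0.05. The list's medians stayed between −0.04 and 0.08.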

How the data were processed

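RNA from 24 BMDM libraries was sequenced as single reads of 150 bases. The authors trimmed reads with cutadapt 1.8, aligned them with STAR 2.7 to GRCm39 (Ensembl 110) and deposited raw read counts per gene from htseq-count (HTSeq 0.9.1). Reads matching several places or several genes were not counted. Totals of reads assigned to no gene, 12.7 to 15.2% of all, were left out. They include reads aligned to more than 1 place, 6.24 to 7.41% of all, some of which may come from genes with close copies. A deposited table of RSEM values was not used, because its header could not be aligned with its columns.

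Counts were analysed with edgeR 4.0.16 in R 4.3.3 by TMM normalization, filterByExpr, and the quasi-likelihood test over all 24 libraries with group as the only factor. Of 56884 genes, 13679 were tested. *P* values were adjusted by the Benjamini-Hochberg method. The thresholds, an adjusted *P* of 0.05 and a 2.5-fold change, follow the study. DESeq2 1.42.0 was an alternative. Levels are TMM-normalized CPM, and SDs are over 4 mice. Fits were tested on simulated data. The biological coefficient of variation was 7.43%. Replicates differed by more than counting noise.

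Libraries with one mouse number came from the same animal. Same-mouse deviations correlated above 0.1 in 56 of 60 pairs (median 0.24), and those of different mice in 7 of 180 (median −0.054). The labels give M-CSF at another unit than the study's methods, so its dose is not stated.

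The members and gene lists were chosen with earlier results of these data known. All 10 members were described in every group. Of each list, any called gene could be named, with values for at most 6, those with the largest fold change among called genes with a mean of at least 50 counts. *F830016B08Rik*, *Ifngr1*, *Ifngr2*, *Ifnar1*, *Ifnar2* and the Oligo values of *Casp4* were added after their values were seen. Values of 1 called gene of the interferon signalling list are not reported here. Neighbours in pattern were the 5 genes with the highest Pearson *r*. Alternatives covered the tool, normalization, filter, fold threshold, samples fitted, mouse block, leaving out each mouse, and the length of shared stretches.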

Additional observations from a re-analysis of the deposited data

Results flagged for a closer look

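*Gbp5* in the tunicamycin group had 1 library away from the rest. Mouse 2 measured 3.48 CPM, while the other libraries measured 2.16 to 2.33 CPM, and the gap was 0.872 of the group's range, above Dixon's critical value for 4 samples. It was the 1 value past that limit among 52 sets of 4 libraries examined, and chance passes about 1 in 20.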

How the results depend on the processing

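No called value changed direction under the alternatives run. Requiring 10 counts in every library removed low members from testing and left 3, 3, 3, 3 and 2 family calls for IL-4/IL-13, tunicamycin, Sal003, Oligo and Oli_ISR, and 3 IRG calls for tunicamycin. Without a minimum fold, Oligo against Oli_ISR had 2 family calls, the IRG list had 10 (tunicamycin), 12 (Oligo) and 11 (Oligo against Oli_ISR), the interferon signalling list had 13, 16, 14, 14, 12 and 11, and the GBP partner list 7, 11, 7, 11, 10 and 6, in the order of the comparisons. At 2-fold, the signalling list had 9 calls for IL-4/IL-13 and 2 for Oligo against Oli_ISR, and the IRG list 5 for the latter. That IRG count, 1 as reported, was 2 with DESeq2, 0 with upper-quartile normalization, 0 with at least 10 counts, and 0 to 2 when each mouse was left out in turn. *Gbp7* in Oligo went under the fold threshold without mouse 2 (1.30) and in Oli_ISR past it without mouse 4 (1.40). With mouse as a replicate block, the family counts were 5, 5, 6, 6, 5 and 1, as reported, 1 raised signalling gene in Oli_ISR was lost, and the block moved no count beyond 1.5 times. Precision is limited by depth for *Gbp10*, *Gbp11* and *Gbp4*, and by shared sequence for *Gbp6* and *Gbp10*. Of the shares of shared sequence, 12 moved with stretches of 50 or 100 bases.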
